A study of Mus musculus with 4 samples.

Results

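The RNAs described here are the small nuclear and small nucleolar RNAs of mouse brain neurons, together with the telomerase RNA and the RNA parts of the 7SK, RNase MRP and RNase P complexes. They were measured in nuclei of excitatory neurons and nuclei of inhibitory neurons, separated by fluorescence-activated sorting. The tissue was adult brain, wild type in genotype, from which the olfactory bulb had been left out. The excitatory group had 2 libraries and the inhibitory group 2, all labelled as batch 1. Separate animals are not named in the labels, and a p-value here reflects the spread among these libraries alone, which may be technical. Nothing in the labels gives the age in weeks or the markers of the sort. The RNA was depleted of ribosomal RNA, not selected by poly(A), and made into strand-specific libraries read as pairs of 150 bases.

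Values are TPM, transcripts per fixed total, in which the length of each transcript and the depth of each library have been divided out. Of the 55487 genes listed, 180 carried a symbol of a small nucleolar RNA (snoRNA), small Cajal body RNA (scaRNA), small nuclear RNA (snRNA) or Y RNA, or were Rn7sk, Rmrp, Rpph1 or Terc. The 99 of these that reached 5 TPM or more in 2 or more of the 4 libraries are the members of the set, and 81 stayed below. The members were therefore chosen by their levels, which are given as a description. By class they were 62 rows of box C/D snoRNAs, 20 of box H/ACA snoRNAs, 8 of scaRNAs, 2 of major spliceosomal snRNAs (Rnu1a1 and Rnu2-10), 1 of a minor spliceosomal snRNA (Rnu12), 1 each of Rn7sk and Rpph1, and 2 each of Rmrp and Terc. Some genes stood under more than 1 row, so that the 62 box C/D rows cover 58 loci.

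Most of these RNAs guide or build the machines that process other RNAs. Box C/D snoRNAs carry a C box and a D box near their ends and guide 2′-O-methylation, while box H/ACA snoRNAs fold into hairpins, end in an ACA box and guide pseudouridylation, in both cases mainly of ribosomal RNA in the nucleolus. Their relatives in Cajal bodies, the scaRNAs, guide the same changes on the spliceosomal snRNAs. In mammals most snoRNAs are cut out of the introns of host genes, whereas 7SK, RMRP and RPPH1 are made from genes of their own by RNA polymerase III. 7SK holds the elongation factor P-TEFb inactive, RMRP and RPPH1 are the RNAs of the related ribonucleases MRP and P, and Terc is the template RNA of telomerase.

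The sequences on which the results turn are shown here from the GENCODE M21 transcripts (GRCm38/mm10), as DNA letters. Rn7sk (chr9:78175303-78175633, minus strand) is shown because it was the most abundant member. Its first 100 bases hold, in capitals, the 3 matches of the whole RNA to GATC, the first starting at base 13 and the last at base 64, and the 7SK hairpin with GATC repeats is the one that HEXIM proteins bind.
Rn7sk, bases 1 to 100: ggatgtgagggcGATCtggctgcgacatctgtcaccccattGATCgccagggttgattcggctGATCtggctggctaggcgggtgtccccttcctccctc

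Rmrp and U3 show how rows of the table can overlap. The longer Rmrp row (chr4:43492783-43493063, minus strand) has 5 more bases at each end than the shorter row, in capitals. The U3 sequence is that of Rnu3b3 (chr11:87448627-87448842, plus strand), whose last base, in capitals, is absent from the shorter row of the same locus.
Rmrp, longer row: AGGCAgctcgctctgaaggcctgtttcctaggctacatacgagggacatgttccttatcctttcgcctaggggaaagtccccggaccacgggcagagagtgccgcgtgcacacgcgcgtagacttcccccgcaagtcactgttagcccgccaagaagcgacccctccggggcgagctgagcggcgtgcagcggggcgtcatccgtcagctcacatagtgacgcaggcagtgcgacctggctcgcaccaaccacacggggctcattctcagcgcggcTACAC
Rnu3b3, longer row: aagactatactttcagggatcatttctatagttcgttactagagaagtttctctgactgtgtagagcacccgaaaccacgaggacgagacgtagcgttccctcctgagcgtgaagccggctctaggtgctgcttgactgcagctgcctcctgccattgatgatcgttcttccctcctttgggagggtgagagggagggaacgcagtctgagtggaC

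Snord116 is shown because 17 copies of it stand in the set and 14 of them are identical. The common sequence is that of Snord116l17 (chr7:59861731-59861824, minus strand), with the C box TGATGA and the D box CTGA in capitals. In the other copies, Snord116l12 (chr7:59904755-59904848), Snord116l14 (chr7:59871864-59871957) and Snord116l9 (chr7:59897161-59897254), capitals mark the bases that differ from it. Counted from the 5′ end, with the common base first, the substitutions are C74A, T77A and C81A in Snord116l12, G83T in Snord116l14, and G1A and C16T in Snord116l9.
Snord116l17: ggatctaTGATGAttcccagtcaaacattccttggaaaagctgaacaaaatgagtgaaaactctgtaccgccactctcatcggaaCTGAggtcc
Snord116l12: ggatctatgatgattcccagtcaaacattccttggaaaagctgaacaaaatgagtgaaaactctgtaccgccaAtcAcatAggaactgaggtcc
Snord116l14: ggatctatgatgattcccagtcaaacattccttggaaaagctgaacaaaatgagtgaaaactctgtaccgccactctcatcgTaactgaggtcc
Snord116l9: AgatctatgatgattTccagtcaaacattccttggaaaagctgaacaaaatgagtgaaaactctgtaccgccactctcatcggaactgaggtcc

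The 3 box H/ACA snoRNAs described below are Snora36b (chr1:185242907-185243038, plus strand), Snora15 (chr5:129794546-129794676, plus strand) and Snora35 (chrX:146994381-146994508, plus strand). The first and the second passed the test between the neuron classes, and Snora35 came close to it. Capitals mark the ACA box 3 bases from the end.
Snora36b: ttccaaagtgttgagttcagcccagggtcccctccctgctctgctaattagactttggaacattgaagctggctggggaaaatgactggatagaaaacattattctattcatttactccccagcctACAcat
Snora15: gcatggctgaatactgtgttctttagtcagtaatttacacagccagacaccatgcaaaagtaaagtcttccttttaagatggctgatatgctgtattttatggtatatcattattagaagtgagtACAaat
Snora35: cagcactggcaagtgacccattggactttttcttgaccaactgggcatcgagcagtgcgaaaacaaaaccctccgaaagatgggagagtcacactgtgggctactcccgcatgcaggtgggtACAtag

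The class labels were set against these boxes. Among the 62 box C/D members, 61 held CTGA in their last 25 bases and 41 held TGATGA in their first 25 bases, the strand being that of the transcript. Without the U3 rows, the counts were 52 and 41 of 53. ACA stood 3 bases from the end in 17 of the 20 box H/ACA members, that is 85%. Over the 1558 snoRNA and scaRNA genes of GENCODE M21, which mix the classes, the shares were 56.5% for CTGA, 21.4% for TGATGA and 19.3% for ACA. The boxes did not set members apart from candidates of the same class below the threshold. Of 48 such box C/D candidates, 48 held CTGA and 30 held TGATGA, and of 22 such box H/ACA candidates 18 held ACA (81.8%). A missing match says only that these letters are not in that window.

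The libraries stood by their neuron class. Correlations over the 26055 genes tested were 0.967 between the excitatory libraries, 0.968 between the inhibitory libraries and 0.916 to 0.923 across classes. Of 6 excitatory marker genes, 5 were called higher in excitatory nuclei and 1, Slc17a6, higher in inhibitory nuclei, and all 5 inhibitory markers tested were higher in inhibitory nuclei. Astrocyte, oligodendrocyte and microglia lists gave 0 calls of 5 genes each, and of 4 endothelial genes 0 were high enough to be tested. The astrocyte genes summed to 47.6 and 56.6 TPM at the lowest and highest in excitatory libraries, against 33.0 and 42.7 TPM in inhibitory libraries. The oligodendrocyte sum ran between 316 and 387 TPM in excitatory libraries, against 240 and 330 TPM in inhibitory libraries, and the microglia sum between 34.1 and 36.8 TPM in excitatory libraries, against 37.3 and 48.1 TPM in inhibitory libraries. Their part in the results below was not tested. Depth per library is unknown, because TPM does not keep it, and no counting interval is given. In bulk RNA, fewer cells that hold an RNA and less of it per cell cannot be told apart.

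A handful of RNAs made up nearly all of the small RNA signal. Rn7sk alone had 94539 and 67624 TPM in excitatory replicates 1 and 2, against 78860 and 73608 TPM in inhibitory replicates 1 and 2. All 99 members together took 18.1% and 13.4% of the TPM in excitatory libraries and 16.0% and 14.3% in inhibitory libraries. Without Rn7sk and Rmrp, the shares were 2.91% and 2.21% in excitatory and 3.02% and 2.49% in inhibitory libraries. Only 5 members, namely Rn7sk, Rmrp, Scarna10, Rpph1 and Scarna2, averaged over 1000 TPM, and none of them is shorter than 271 bases. Another 7 lay between 100 and 1000 TPM, and 87 stayed under 100 TPM. The median member averaged 20.2 TPM.

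Short members were the lower ones. The 72 members under 150 bases, the length of a read, had a median of 16.9 TPM, and the 26 of 150 bases or more a median of 70.5 TPM. Length and level had a Spearman correlation of 0.38 across the 98 members with an annotated length, which share the same libraries. The submitters' notes do not record how transcripts shorter than a read pair were handled in the counting, and levels of long and short members may not share a scale.

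**Figure D1:**
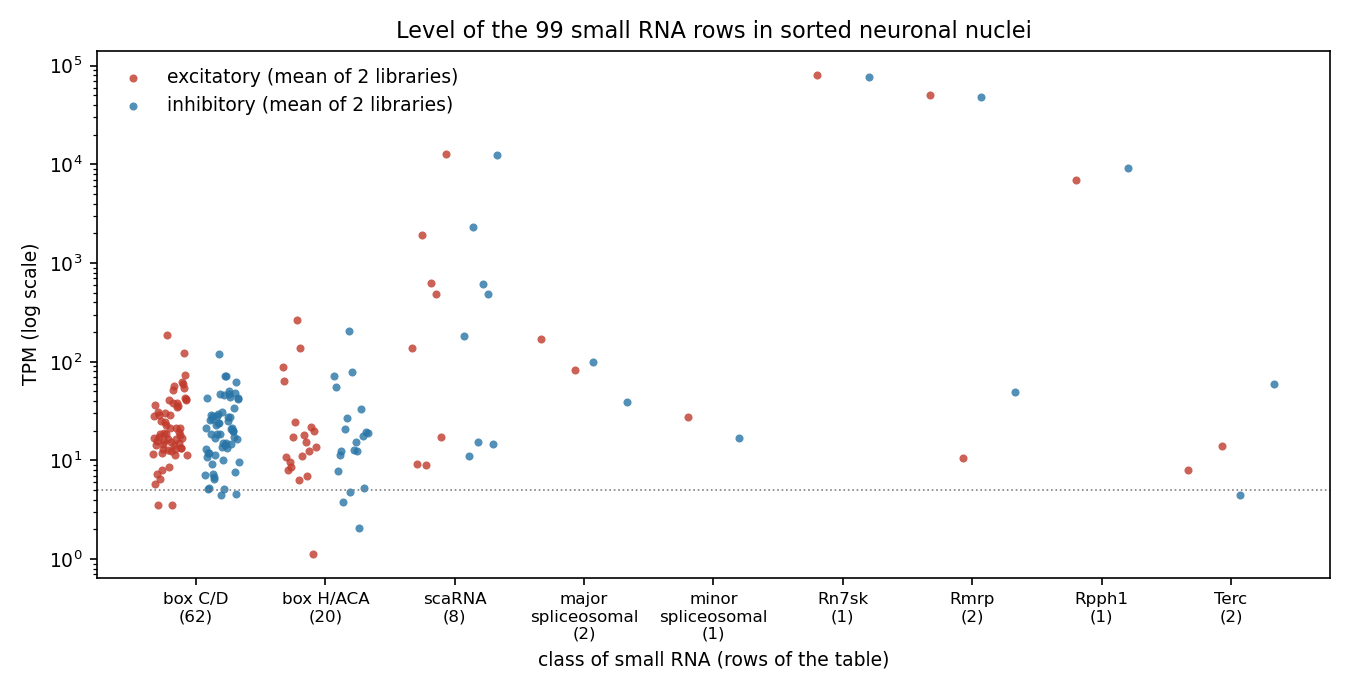
TPM of the 99 member rows by class on a log axis, with the mean of 2 excitatory libraries at the left (red) and of 2 inhibitory libraries at the right (blue) of each class; the dotted line is the 5 TPM of the member rule and the number of rows stands under each class. Rn7sk, Rmrp, Scarna10, Rpph1 and Scarna2 lie above 1000 TPM, and most box C/D and H/ACA snoRNAs lie between 10 and 100 TPM.

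The comparison between excitatory and inhibitory nuclei used limma on log2(TPM + 1) over all 26055 genes that had 1 TPM or more in 2 or more libraries, and a gene was called at a Benjamini-Hochberg adjusted p under 0.05. Few small RNAs passed. The test called 5 of the 99 members, or 5.05%, where it called 3139 of all tested genes, or 12.0%. Of these, 3 rows stood higher in excitatory nuclei (5.43% of all tested genes) and 2 higher in inhibitory nuclei (6.62% of all tested genes). At an unadjusted p under 0.05 stood 23 members, or 23.2%, beside 27.8% of all tested genes. Of these, 13 were higher in excitatory nuclei (11.8% of all tested genes) and 10 in inhibitory nuclei (16.1%). The median log2 fold change of the members, excitatory over inhibitory, was -0.06, beside -0.07 for all tested genes.

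The excitatory and inhibitory values did not overlap for 44 members, that is 44.4%, beside 56.2% of all tested genes. For 7 of the 44 this was fixed by the member rule. Both libraries of 1 class had reached 5 TPM and both of the other had not. In 20 of them the excitatory nuclei were higher (23.0% of all tested genes) and in 24 the inhibitory nuclei (33.3%). Replicates lay further apart for the members than for genes at large. The median gap between replicates was 0.42 on the log2 scale in excitatory and 0.31 in inhibitory nuclei for the members, against 0.22 and 0.21 for all tested genes. For the 19783 tested genes with mean levels between 3.19 and 138 TPM, the range of most members, it was 0.21 in excitatory and 0.19 in inhibitory nuclei. A member that was not called is therefore not shown to be equal in the neuron classes.

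Of the 5 called rows, the 2 of U3 lost the call when the rows of each symbol were summed, and Snora36b, Snora15 and the Rnu3b3 row had reached 5 TPM in the libraries of 1 class only, so that they had to differ to be in the set. No gene of the table passed the test when any 1 library was left out and the same genes were kept, which leaves 1 residual degree of freedom. With the low-value filter applied to the 3 libraries left, a change added after the values were seen, between 604 and 1039 genes were called in favour of excitatory nuclei and between 800 and 1085 in favour of inhibitory nuclei.

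**Figure D2:**
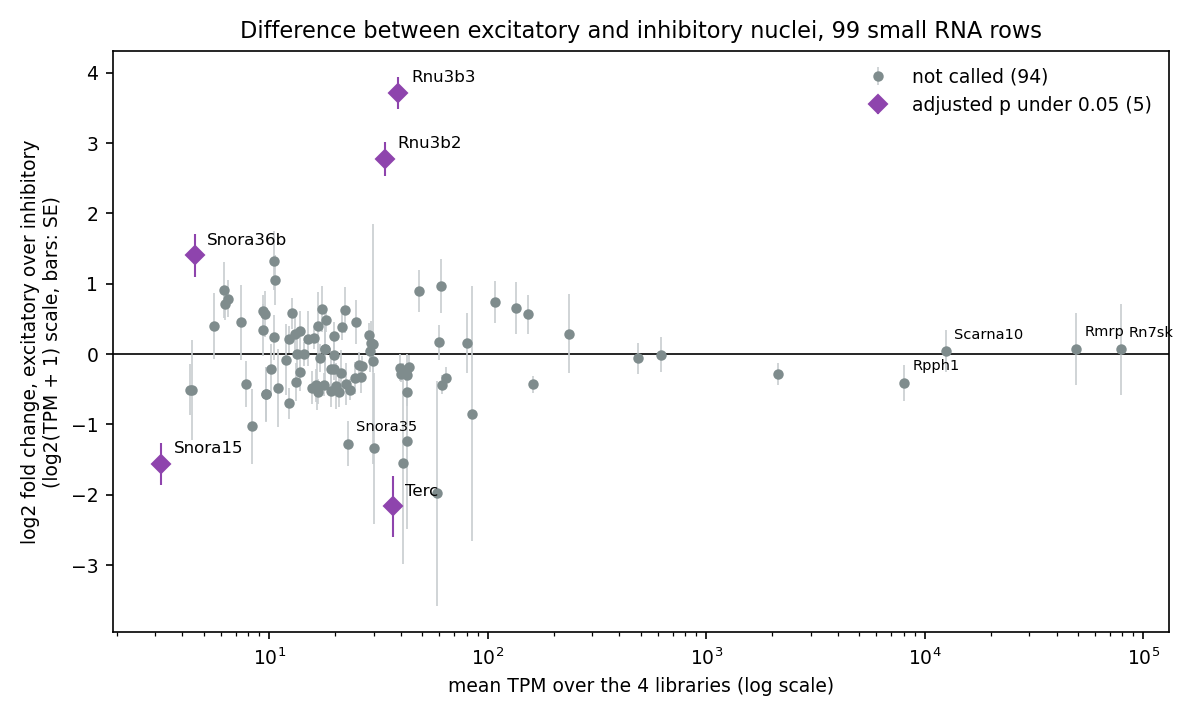
Log2 fold change of excitatory over inhibitory nuclei (log2(TPM + 1) scale, bars are limma standard errors) against the mean TPM of the 4 libraries on a log axis, for 99 member rows. The 5 called rows are purple diamonds and the other 94 are grey; the RNAs above 1000 TPM lie near 0, and several grey rows with long bars are U3 rows.

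The RNAs of 7SK, RNase MRP and RNase P were among the most abundant, and none was called. Rn7sk differed by a log2 fold change of 0.07 ± 0.65 (SE, limma adjusted p = 0.96), and its inhibitory values lay between the excitatory ones. Rmrp had 57380 and 43776 TPM on its shorter row in excitatory nuclei, against 50532 and 44857 TPM in inhibitory nuclei, a log2 fold change of 0.07 ± 0.52 (SE, limma adjusted p = 0.95). The variance trend behind these standard errors rests on few genes at such levels, since 21 of those tested averaged over 1000 TPM.

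The longer Rmrp row carried far less, with 14.7 and 6.46 TPM in excitatory nuclei, against 92.0 and 7.07 TPM in inhibitory nuclei. Only inhibitory replicate 1 was high, and the log2 fold change of -1.34 ± 1.07 was not called (limma adjusted p = 0.48). Summed over both rows, Rmrp differed by 0.07 ± 0.53 on the log2 scale (limma adjusted p = 0.95). Its sequence is also held by another GENCODE gene, which is the longer row.

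Rpph1 (chr14:50807449-50807767) was lower in both excitatory libraries, with 7857 and 5988 TPM, than in the inhibitory ones, with 10119 and 8201 TPM. The groups did not overlap, but the log2 fold change of -0.41 ± 0.26 was not called (limma adjusted p = 0.37). Terc stood in 2 rows that went opposite ways. The row ENSMUSG00000118406, whose identifier is not in GENCODE M21 and which therefore has no position here, had 7.27 and 20.5 TPM in excitatory nuclei, against 67.7 and 51.0 TPM in inhibitory nuclei. It was called lower in excitatory nuclei, by a log2 fold change of -2.16 ± 0.43 (SE, limma adjusted p = 0.0294). The annotated Terc row (chr3:96414437-96414859) had 7.39 and 8.66 TPM in excitatory nuclei, against 4.45 and 4.50 TPM in inhibitory nuclei, and was not called (0.72 ± 0.24, limma adjusted p = 0.11).

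Summing both Terc rows gave 14.7 and 29.2 TPM in excitatory nuclei, against 72.1 and 55.5 TPM in inhibitory nuclei. The sum was called lower in excitatory nuclei (-1.56 ± 0.31, limma adjusted p = 0.0295). Whether both rows belong to the same locus is not known. In inhibitory nuclei most of the sum came from the called row, so the sum is not a separate test of it. Without the low-value filter the row's adjusted p was 0.10, and without the variance trend it was 0.077. Tert, the telomerase protein that copies the Terc template, had 6.30 and 8.52 TPM in excitatory nuclei, against 8.47 and 7.50 TPM in inhibitory nuclei, and was not called.

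The scaRNAs were abundant and showed no called difference among 8 members. Scarna10 (chr6:125186359-125186683, minus strand) had 14280 and 11072 TPM in excitatory nuclei, against 13654 and 10985 TPM in inhibitory nuclei, and each replicate 1 was the higher of its pair. Its log2 fold change was 0.04 ± 0.30 (SE, limma adjusted p = 0.95). It is shown because it is the only member over 1000 TPM that overlaps exons of another gene, Ncapd2. That gene was high too, with 1510 and 879 TPM in excitatory nuclei, against 831 and 1003 TPM in inhibitory nuclei. It was not called (0.34, limma adjusted p = 0.47). The submitters' notes do not record how reads in the shared bases were counted. Of the 325 bases of Scarna10, 237 lie in annotated Ncapd2 exons and 88 outside them. Capitals mark the exonic bases among the first 200.
Scarna10, bases 1 to 200: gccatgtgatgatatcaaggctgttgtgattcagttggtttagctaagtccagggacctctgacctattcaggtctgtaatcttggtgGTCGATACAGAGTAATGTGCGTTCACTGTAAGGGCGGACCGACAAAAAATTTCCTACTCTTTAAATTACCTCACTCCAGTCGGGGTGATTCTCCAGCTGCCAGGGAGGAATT

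Scarna2 (chr3:108554338-108554751) had 2017 and 1829 TPM in excitatory nuclei, against 2510 and 2170 TPM in inhibitory nuclei. Its groups did not overlap, and its log2 fold change was -0.28 ± 0.15 (SE, limma adjusted p = 0.30). Scarna13, in an intron of the snoRNA host gene Snhg10, had 791 and 463 TPM in excitatory nuclei, against 664 and 557 TPM in inhibitory nuclei, with the inhibitory values between the excitatory ones. Scarna6, in an intron of Atg16l1, showed the same order, with 586 and 377 TPM in excitatory nuclei, against 537 and 446 TPM in inhibitory nuclei. Of the smaller scaRNAs, Scarna9 came nearest to a call, with 124 and 150 TPM in excitatory nuclei, against 189 and 180 TPM in inhibitory nuclei (-0.43 ± 0.12, limma adjusted p = 0.075); it was singled out after its values were seen. Scarna3a, Scarna3b and Scarna17 averaged between 10.1 and 16.1 TPM.

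The spliceosomal snRNAs in the set were U1, U2 and U12, and in each of them excitatory replicate 1 was the highest library. Rnu1a1, a U1 gene whose RNA pairs with the 5′ splice site, had 117 and 49.2 TPM in excitatory nuclei, against 44.4 and 33.4 TPM in inhibitory nuclei. The groups did not overlap, and the log2 fold change of 0.97 ± 0.39 was not called (limma adjusted p = 0.17). Rnu2-10, a U2 gene whose RNA pairs with the branch site, had 240 and 101 TPM in excitatory nuclei, against 91.9 and 105 TPM in inhibitory nuclei (0.66 ± 0.37, limma adjusted p = 0.31).

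Rnu12, the U12 RNA of the minor spliceosome, had 37.3 and 18.4 TPM in excitatory nuclei, against 18.9 and 14.6 TPM in inhibitory nuclei (0.63 ± 0.33, limma adjusted p = 0.29). Without excitatory replicate 1 the log2 fold changes were 0.35 for Rnu1a1, 0.04 for Rnu2-10 and 0.13 for Rnu12. The sequence of Rnu1a1 is held by 6 other GENCODE genes and that of Rnu2-10 by 3, so their levels may be shared with other rows. Other snRNA rows were low: Rnu6, for the catalytic U6 RNA, had 0 and 0.741 TPM in excitatory nuclei, against 1.19 and 1.35 TPM in inhibitory nuclei, and Rnu11, of the minor spliceosome, was listed at 0 in all 4 libraries. Of the Y RNAs, Rny1 was listed at 0 in all libraries, and Rny3 had 1.66 and 10.1 TPM in excitatory nuclei, against 1.95 and 0 TPM in inhibitory nuclei.

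U3, the box C/D snoRNA that acts in the cleavage of the ribosomal RNA precursor and guides no methylation, gave the largest fold changes of the set, on single rows that did not keep them when summed. The 4 Rnu3b loci lie on chromosome 11 between 87443237 and 87471583 within introns of Tex14, have identical sequences, and each has 2 rows that differ by the last base. The shorter row of Rnu3b3 had 87.3 and 59.3 TPM in excitatory nuclei, against 4.97 and 4.19 TPM in inhibitory nuclei, and was called higher in excitatory nuclei by a log2 fold change of 3.71 ± 0.22 (SE, limma adjusted p = 0.00156). Its longer row had 108 and 1.34 TPM in excitatory nuclei, against 59.2 and 64.8 TPM in inhibitory nuclei (-1.98 ± 1.60, limma adjusted p = 0.49). The excitatory libraries thus bracketed the inhibitory ones on the longer row.

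The same split held at Rnu3b2. Its shorter row had 73.7 and 46.0 TPM in excitatory nuclei, against 7.50 and 7.83 TPM in inhibitory nuclei, and was called (2.77 ± 0.24, limma adjusted p = 0.00312), while its longer row had 79.5 and 1.62 TPM in excitatory nuclei, against 40.8 and 42.3 TPM in inhibitory nuclei (-1.55 ± 1.43, limma adjusted p = 0.55). How the value of a locus was divided between its rows changed from library to library. At Rnu3b3 the shorter row held 44.7% and 97.8% of the locus in excitatory libraries and 7.74% and 6.08% in inhibitory libraries. At Rnu3b1 it held 1.31% and 97.4% in excitatory libraries and 45.5% and 48.2% in inhibitory libraries.

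With the rows summed, excitatory replicate 1 stood above the other 3 libraries. The sum of all 8 Rnu3b rows was 750 and 245 TPM in excitatory nuclei, against 249 and 267 TPM in inhibitory nuclei. Its log2 fold change was 0.73 ± 0.47 (SE, limma adjusted p = 0.38), and the adjusted p of the loci taken one at a time lay between 0.30 and 0.42. Rnu3a (chr10:40258467-40258680), another U3 gene, also has 2 rows that differ by 1 base, of which only the longer is a member. That row had 19.1 and 10.5 TPM in excitatory nuclei, against 8.06 and 4.94 TPM in inhibitory nuclei (1.05 ± 0.35, limma adjusted p = 0.11). Both rows summed gave 36.0 and 10.8 TPM in excitatory nuclei, against 9.06 and 5.82 TPM in inhibitory nuclei, with excitatory replicate 1 high again (1.33 ± 0.53, limma adjusted p = 0.17). With the rows of each symbol summed, the set had 93 members, of which Snora36b was called higher in excitatory nuclei and Snora15 and Terc higher in inhibitory nuclei.

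**Figure D3:**
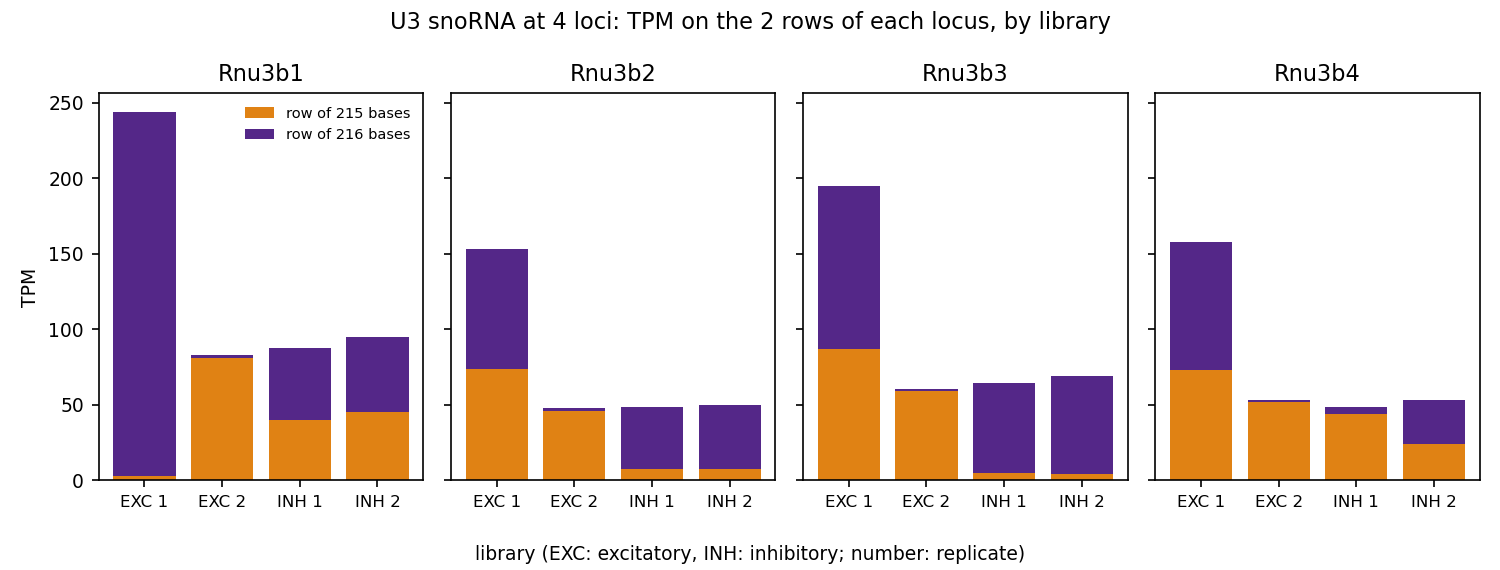
Stacked bars of TPM on the 215-base row (orange) and the 216-base row (purple) of each Rnu3b locus, for excitatory replicates 1 and 2 and then inhibitory replicates 1 and 2. Excitatory replicate 1 is highest at each locus and the other 3 libraries have similar totals, while the share of the orange row changes between libraries.

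Snord116 is a box C/D snoRNA cluster of the imprinted Prader-Willi region, processed from introns of the long neuronal transcript Snhg14. All 17 copies in the set lie on chr7:59861731-59904848 on the minus strand, and their summed level was 415 and 444 TPM in excitatory nuclei, against 511 and 594 TPM in inhibitory nuclei. The mean was lower in excitatory nuclei for 16 copies and higher for 1, Snord116l5, by a small margin (14.4 TPM in excitatory and 14.3 TPM in inhibitory nuclei). For 11 copies the groups did not overlap, each time with excitatory nuclei lower, where 33.3% of all tested genes did so. None was called by limma, the lowest adjusted p being 0.089, and 5 had an unadjusted p under 0.05, all lower in excitatory nuclei, as had 16.1% of all tested genes. These copies come from 1 transcript and share sequence, so they are not separate observations.

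Their median log2 fold change was -0.34, beside -0.07 for all tested genes, and that of the host Snhg14 was -0.30 ± 0.26 (SE, limma adjusted p = 0.51). Snhg14 averaged 6782 ± 1307 TPM in excitatory nuclei and 8327 ± 1326 TPM in inhibitory nuclei (SD, n = 2 each). In both the copies and the host, the excitatory values were the lower on average, and in the host the groups overlapped.

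Copies with the same sequence were listed at different levels. Compared without 3 bases at each end, the sequence of each identical copy is held by 30 other GENCODE genes. The 14 in the set are therefore not all of the identical copies. Among the 14 identical copies the mean over the 4 libraries ran between 13.4 TPM for Snord116l13 and 61.9 TPM for Snord116l17, a ratio of 4.63. Snord116l17 had 53.4 and 51.3 TPM in excitatory nuclei, against 63.9 and 79.0 TPM in inhibitory nuclei (-0.43 ± 0.13, limma adjusted p = 0.095). Snord116l12, the one with 3 substitutions, is the first of the 17 along the transcribed strand. It was the highest of them, with 50.1 and 63.3 TPM in excitatory nuclei, against 65.6 and 77.4 TPM in inhibitory nuclei. A read from an identical copy cannot be placed by its snoRNA sequence alone, and the submitters' notes do not record how such reads were divided.

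**Figure D4:**
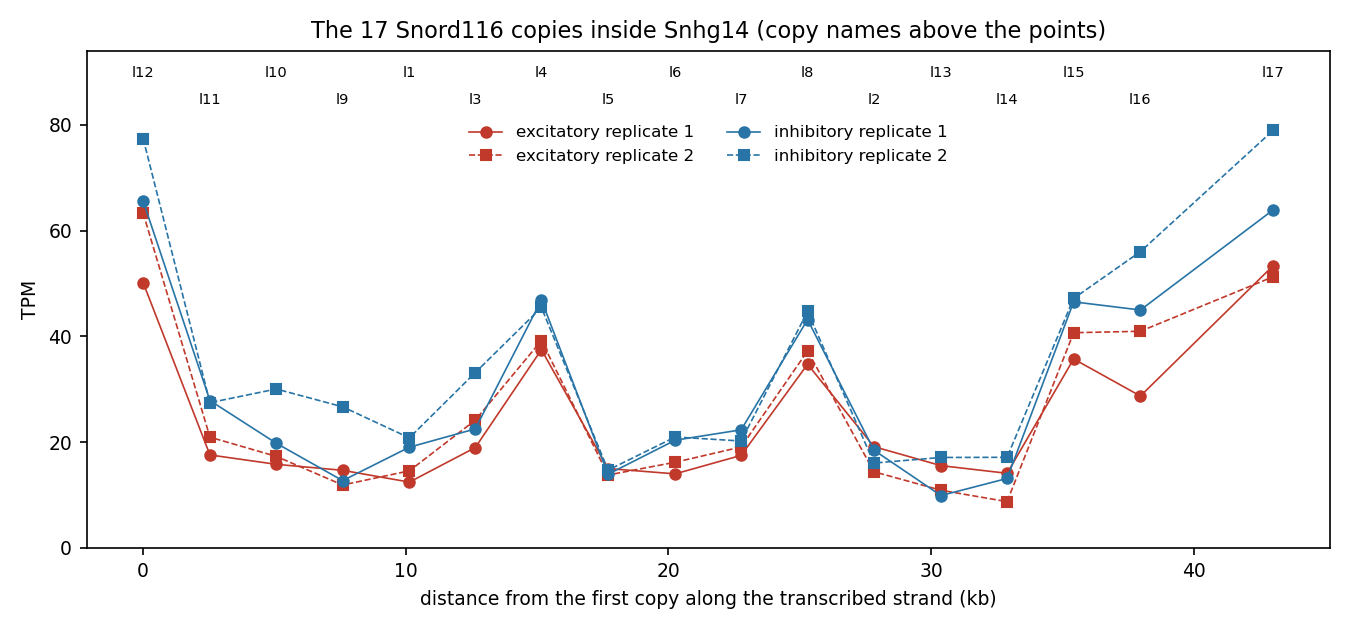
TPM of the 17 Snord116 copies in each library against their distance in kb from the first copy along the transcribed strand, with excitatory replicates in red and inhibitory replicates in blue (circles and solid lines for replicate 1, squares and dashed lines for replicate 2) and copy names above. The copies at either end of the span plotted and the copies l4 and l8 stand high in all 4 libraries. The blue points lie above the red ones at most copies.

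The other 36 box C/D snoRNAs showed no called difference, with 20 log2 fold changes above 0 and 16 below. Their summed level was 881 and 740 TPM in excitatory nuclei, against 738 and 752 TPM in inhibitory nuclei. Snord17, in an intron of Snx5, was the most abundant, with 242 and 131 TPM in excitatory nuclei, against 128 and 113 TPM in inhibitory nuclei (0.56 ± 0.27, limma adjusted p = 0.25). Its groups did not overlap, and excitatory replicate 1 stood apart. Snord15b, which lies within an exon of the ribosomal protein gene Rps3, had 22.5 and 9.01 TPM in excitatory nuclei, against 4.30 and 6.01 TPM in inhibitory nuclei (1.33 ± 0.43, limma adjusted p = 0.10).

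Snord82, in an intron of Ncl, the gene of the nucleolar protein nucleolin, had its higher mean in inhibitory nuclei, with 2.22 and 9.36 TPM in excitatory nuclei, against 11.8 and 9.79 TPM in inhibitory nuclei (-1.03 ± 0.54, limma adjusted p = 0.28). Snord11, in an intron of the snoRNP gene Nop58, reached the threshold in excitatory nuclei only, with 9.78 and 7.19 TPM there, against 4.06 and 4.86 TPM in inhibitory nuclei. Snord15a and Snord61 had 1 library at the threshold in a group, Snord61 with 6.01 and 1.12 TPM in excitatory nuclei, against 8.30 and 2.23 TPM in inhibitory nuclei. The remaining box C/D snoRNAs outside U3 and Snord116 gave limma adjusted p-values of at least 0.10.

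Among the box H/ACA snoRNAs, 1 was called in each direction. Snora36b, in an intron of Rab3gap2, had 6.78 and 7.24 TPM in excitatory nuclei, against 1.50 and 2.66 TPM in inhibitory nuclei, and was called higher in excitatory nuclei by a log2 fold change of 1.40 ± 0.30 (SE, limma adjusted p = 0.0364). Its host, which regulates a vesicle GTPase, had 76.2 and 84.1 TPM in excitatory nuclei, against 78.6 and 91.9 TPM in inhibitory nuclei, and was not called (-0.09, limma adjusted p = 0.71). Snora15 had 1.43 and 0.845 TPM in excitatory nuclei, against 5.46 and 5.01 TPM in inhibitory nuclei, and was called lower in excitatory nuclei by -1.56 ± 0.30 on the log2 scale (SE, limma adjusted p = 0.0260).

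Snora15 lies partly in exons of Cct6a, a chaperonin subunit gene, with 102 of its 131 bases inside them. Cct6a had 76.1 and 68.9 TPM in excitatory nuclei, against 90.0 and 73.1 TPM in inhibitory nuclei, and was not called (-0.16, limma adjusted p = 0.50). Both Snora36b and Snora15 sit at levels near the threshold and lost the call without the low-value filter, with adjusted p-values of 0.096 for Snora36b and 0.075 for Snora15.

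Snora35, singled out after its values were seen, lies in an intron of Htr2c, the gene of the serotonin 2C receptor. It had 14.5 and 10.7 TPM in excitatory nuclei, against 43.8 and 22.7 TPM in inhibitory nuclei, without overlap, and its log2 fold change of -1.27 ± 0.32 just missed the threshold (limma adjusted p = 0.0568). It passed with a filter of 5 TPM, at an adjusted p of 0.0412. It was not called with the other pseudocounts, under median ratio scaling, with no filter or with no variance trend. Nor was it called when values were rescaled over protein-coding genes or over genes of at least 300 bases. Htr2c had 21.6 and 16.7 TPM in excitatory nuclei, against 85.8 and 72.1 TPM in inhibitory nuclei, and was called lower in excitatory nuclei (-1.99, limma adjusted p = 0.00305). It was the only called gene among the 48 tested hosts of members.

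Replicates lay further apart than neuron classes in 2 of the 3 most abundant H/ACA snoRNAs. These, Snora73b and Snora73a, lie in introns of Rcc1, a regulator of the nuclear GTPase Ran. Snora73b had 387 and 138 TPM in excitatory nuclei, against 291 and 123 TPM in inhibitory nuclei, and Snora73a had 126 and 49.6 TPM in excitatory nuclei, against 86.6 and 58.0 TPM in inhibitory nuclei. In both, replicate 1 was the higher library of each class and the classes overlapped (limma adjusted p = 0.80 for Snora73b and 0.86 for Snora73a).

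Snora74a, the other of these 3, had 184 and 92.5 TPM in excitatory nuclei, against 78.2 and 77.7 TPM in inhibitory nuclei (0.74 ± 0.30, limma adjusted p = 0.18). Its groups did not overlap. Snora31, in an intron of Tpt1, reached the threshold in excitatory nuclei only, with 5.38 and 11.6 TPM there, against 4.65 and 3.01 TPM in inhibitory nuclei. Summed over the 16 H/ACA members of up to 150 bases, the level was 194 and 217 TPM in excitatory nuclei, against 237 and 214 TPM in inhibitory nuclei. Snora20 and Snora21 each had 1 library below the threshold, Snora69 had 1 in each class, and none of them was called.

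Around the threshold, the last members inside by their second highest library were Snora15 at 5.01 TPM, Snord92 at 5.11 TPM and Snora31 at 5.38 TPM. The nearest outside were Snora78 at 4.89 TPM, Snord110 at 4.63 TPM and Snora62 at 4.59 TPM. The rule admitted 7 rows through both libraries of 1 class with the other class below it, and 13 more with 1 library at the threshold in a class; in 79 rows all 4 libraries reached it.

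Where a small RNA lay in its host gene went with its listed level. The position was taken from GENCODE M21 for a host on the same strand. Of the 87 candidates that lay only in intron, 77 were members (88.5%) and the median of all 87 was 19.1 TPM. The 87 lay in 53 hosts. The 77 include 17 Snord116 copies in Snhg14, and 8 Rnu3b rows and Rnu1a1 in Tex14, so they are not separate observations. Of the 57 that lay wholly within a host exon, 2 were members (3.51%), namely Snord15b and Snora74a, and the median of the 57 was 0.097 TPM. Among the 8 that lay partly in an exon 5 were members, and among the 27 with no host 14 were members. This is a description, since level chose the members, and the submitters' notes do not record how reads shared by a small RNA and an overlapping exon were counted.

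The contrast stood within single hosts too. In the introns of Rpl13a, a ribosomal protein gene, Snord32a averaged 28.8 TPM, Snord34 12.3 TPM and Snord35a 9.54 TPM over the 4 libraries, whereas Snord33, annotated within an exon, averaged 0.154 TPM. In 2410002F23Rik the intronic Snord88c averaged 18.1 TPM and the exonic Snord88a 0.131 TPM. Rps3 went the other way, with 10.4 TPM for the exonic Snord15b and 7.43 TPM for the intronic Snord15a.

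**Figure D5:**
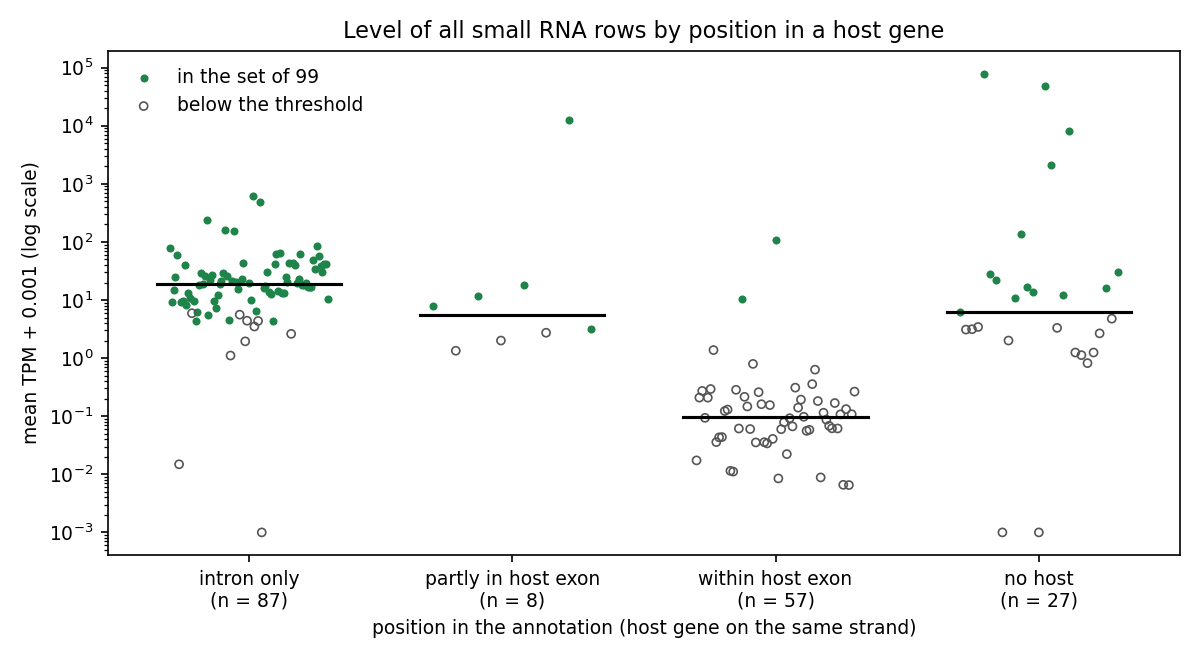
Mean TPM of the 4 libraries plus 0.001 on a log axis for 179 candidates with an annotated position, by position relative to a host gene on the same strand; filled green points are the 99 members except 1 Terc row without a position, open points lie below the threshold, and bars are medians. Most exonic candidates lie under 1 TPM and most intronic ones above 5 TPM.

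Differences between neuron classes in a snoRNA and in its host went the same way only part of the time. Of the 75 members with a tested host, 46 had a log2 fold change of the same sign as the host. Leaving out Snord116, whose copies share a host, the count was 30 of 58 members in 47 hosts, with a Spearman correlation of 0.15 across members that share libraries and in part hosts. Of the 84 members with a host, 20 averaged a higher TPM than the host and 64 did not. Among the 20 were Rnu1a1 and all 8 Rnu3b rows, which cover 4 loci. These lie in introns of Tex14, which had 0.307 and 0.489 TPM in excitatory nuclei, against 1.32 and 0.700 TPM in inhibitory nuclei.

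Few of the proteins that bind or make these RNAs were called. The 11 lists held snoRNP, Cajal body and snRNP proteins, 7SK, RNase P and MRP, telomerase and Y RNA proteins, snRNA transcription and assembly factors, and named host genes. Of the 127 symbols listed, 121 matched a tested gene. Of these 121 genes 3 were called, or 2.48%, beside 12.0% of all tested genes. The median log2 fold change over the lists was -0.08. Fbl, the methyltransferase of box C/D particles, had 31.5 and 37.1 TPM in excitatory nuclei, against 31.2 and 37.5 TPM in inhibitory nuclei. Dkc1, the pseudouridine synthase of H/ACA particles, had 21.4 and 23.7 TPM in excitatory nuclei, against 26.1 and 24.0 TPM in inhibitory nuclei.

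The called list genes all belonged to the 27 snRNP core and specific proteins, 11.1% of that list, beside 12.0% of all tested genes. Lsm3, a subunit of the ring on U6 RNA, averaged 32.4 ± 0.85 TPM in excitatory nuclei and 18.1 ± 2.9 TPM in inhibitory nuclei (SD, n = 2 each). Its log2 fold change was 0.82 ± 0.16 (SE, limma adjusted p = 0.0289). The other listed subunits of that ring were not called and went both ways. Log2 fold changes were 0.15 for Lsm2, 0.20 for Lsm7 and 0.37 for Lsm8. They were -0.25 for Lsm4, -0.11 for Lsm5 and -0.73 for Lsm6 (limma adjusted p = 0.077 for Lsm6). Rnpc3 and Snrnp48, both proteins of the minor spliceosome that contains U12, were called lower in excitatory nuclei. Rnpc3 averaged 113 ± 3.2 TPM in excitatory nuclei and 189 ± 2.2 TPM in inhibitory nuclei (SD, n = 2 each), a log2 fold change of -0.74 ± 0.09 (SE, limma adjusted p = 0.00718). Snrnp48 had 64.6 and 59.9 TPM in excitatory nuclei, against 88.3 and 83.0 TPM in inhibitory nuclei (-0.45 ± 0.11, limma adjusted p = 0.0451). Other minor spliceosome proteins of the list were not called, with log2 fold changes of 0.16 for Snrnp25, -0.38 for Snrnp35 and -0.09 for Zcrb1 (limma adjusted p = 0.86 for Snrnp25, 0.45 for Snrnp35 and 0.60 for Zcrb1). None of the 3 calls held without the variance trend, where the adjusted p was 0.067 for Lsm3, 0.053 for Rnpc3 and 0.15 for Snrnp48. Without the low-value filter Rnpc3 kept its call, while the adjusted p was 0.069 for Lsm3 and 0.080 for Snrnp48, and Snrnp48 also lost it under 4 other settings of pseudocount or scaling, with adjusted p-values of 0.053 to 0.086. The other 10 lists, among them the 7 proteins of 7SK and P-TEFb and the 15 of snRNP assembly, gave 0 calls. In the 7SK and P-TEFb list Cdk9, singled out after its values were seen, came nearest to a call. It had 80.0 and 102 TPM in excitatory nuclei, against 47.2 and 64.0 TPM in inhibitory nuclei (0.70 ± 0.19, limma adjusted p = 0.064). All other genes of that list had log2 fold changes below 0.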

How the data were processed

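The authors deposited 1 table of TPM values per gene and library; TPM keeps no depth. Per the labels' protocols, RNA of sorted nuclei was rRNA-depleted, fragmented and amplified for 12 PCR cycles with a directional kit. Per the submitters' processing notes the build was mm10 and StringTie 2.2.1, Bowtie2 2.3.5, HISAT2 2.2.1 and fastp 0.23.4 were used; these notes give neither their role and order, nor the annotation release, the use of strand or the treatment of reads with several positions.

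Values were analysed as log2(TPM + 1), a pseudocount of 1, with limma 3.58.1 (R 4.3.3; variance trend, 2 residual degrees of freedom, prior 4.04, two-sided, Benjamini-Hochberg over all 26055 tested genes). A log2 fold change on this scale understates the change of low genes. The script was tested on simulated data. An exact permutation of 2 against 2 libraries cannot pass the threshold and was not used. Annotation and sequences came from GENCODE M21, which held 179 of the 180 candidates; the promoter table had none of the members. Figures used matplotlib 3.10.9.

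The members and lists were chosen with earlier results of these data known. Genes named are every called member, the 3 most abundant of each class and all of small classes, the 5 largest changes each way, members below the threshold in 1 class, those beside the threshold and called list genes; some of these appear in counts only. Fbl, Dkc1, Tert, Snhg14, Snord88a, Snord88c and the other genes named outside this rule were picked for their role or position after their values were seen.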

Additional observations from a re-analysis of the deposited data

How the results depend on the processing

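The alternatives were other pseudocounts, filters, scalings, variance priors and member thresholds, the replicate number as a block, and each library left out, plus summed rows and a refitted filter added after the values were seen. Members called higher in excitatory and in inhibitory nuclei numbered 3 and 2 as reported. They numbered 2 and 0 with no filter, and 3 and 1 with no variance trend. With a member threshold of 10 TPM (83 members) or a mean of at least 5 TPM (97 members) they numbered 2 and 1. With a filter of 5 TPM and under quantile normalization they numbered 3 and 3. Summing rows left 1 and 2. List genes numbered 1 and 2 as reported, 0 and 1 with no filter, 0 and 0 with no variance trend, and 2 and 1 under median ratio scaling and under quantile normalization. The excitatory list count was 2 with a filter of 5 TPM, and the inhibitory list count was 1 with a pseudocount of 0.1 and when rescaled over protein-coding genes. The labels share only replicate numbers between classes, and deviations of libraries with the same number correlated at 0.0957. With the replicate number as a block, 6 and 7 members and 2 and 6 list genes were called, and 1946 and 2382 of all genes, beside 1414 and 1725 without it. With no filter, 666 and 740 of all genes were called, and with no variance trend 1007 and 1457. Leaving out 1 library, with either filter, gave 0 to 11 and 0 to 5 members and 0 to 1 and 0 to 1 list genes. The fits left 1 residual degree of freedom with either filter. The cause of the change in calls was not tested.

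Reversals were limited to uncalled values. Leaving out 1 library moved the log2 fold change between -0.20 and 0.026 for Rab3gap2, -0.12 and 0.27 (271-base row) and -3.10 and 0.43 (281-base row) for Rmrp, -0.17 and 0.31 for Rn7sk, -0.15 and 0.22 for Scarna10, -0.39 and 0.38 for Scarna13, -1.29 and 0.32 for Snora21, -0.15 and 0.96 for Snora69, -0.51 and 0.82 for Snora73a, -0.45 and 1.03 for Snora73b, -0.38 and 1.29 for Snord15a, and -1.37 and 0.36 for Snord61. For U3 rows it ran between -3.98 and 2.29 and between -3.38 and 0.91 at Rnu3b1, between -4.02 and 0.92 at the longer row of Rnu3b2, between -4.75 and 0.79 at that of Rnu3b3 and between -2.52 and 2.80 at that of Rnu3b4. Scarna13 also reversed to 0.069 under median ratio scaling and to 0.0048 when rescaled over protein-coding genes, and the longer row of Rnu3b4 to -0.094 with a pseudocount of 0.1. The depth of each library is unknown, so what depth limits could not be stated.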
